A study of Homo sapiens with 40 samples.

Results

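The antimycin response of wild-type HEK293T cells carrying an empty vector was measured in 8 libraries, 4 from cells given antimycin A and 4 from cells given vehicle, out of 40 libraries in the whole study. The libraries were chosen by their labels, and every gene with adequate counts was tested, which left 16739 of 28278 gene symbols. The antimycin group received 40 nM antimycin A for 6 hours, and the vehicle group was kept for the same 6 hours without the drug. HEK293T is a transformed human embryonic kidney line, and both groups have the wild-type genotype with vector. Other lines of the study are knockout cells with vector (KO vector), knockout cells labelled as re-expressing SLC25A12-WT, and knockout cells with SLC25A12-F137S alone or together with dMTS-DELE1. The labels call the libraries biological replicates without saying whether they are separate cultures or whether a line is 1 clone. The p-values therefore weigh each difference against the spread between libraries within groups, estimated over all 40. They may not cover the spread between cultures or clones.

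SLC25A12, the mitochondrial carrier of aspartate and glutamate that the study knocked out, lay at 28.6 to 32.4 CPM (counts scaled to the library's total) in the 4 antimycin libraries, against 36.1 to 39.9 CPM in the 4 vehicle libraries. KO-vector libraries held 2.39 to 3.43 CPM of SLC25A12. Libraries labelled KO plus SLC25A12-WT held 28.2 to 39.2 CPM, the range of wild-type cells, although their label names a knockout. Of 9 genes often used to describe HEK293 cells, all 9 were detected, with a summed level of 945 to 949 CPM under antimycin and 886 to 896 CPM under vehicle. Of 10 markers of differentiated kidney cells, UMOD, a marker of the loop of Henle, had no counts and 6, UMOD included, were under 0.1 CPM. Their sum was 10.1 to 11.3 CPM under antimycin and 10.8 to 12.7 CPM under vehicle. Markers of blood, endothelial, fibroblast and liver cells summed to 28.5 to 30.3 CPM under antimycin and 27.4 to 28.8 CPM under vehicle over 12 genes, 5 of them under 0.1 CPM. The part of these cell types in the results was not tested. The 8 libraries held 30730335 to 31125600 counts each.

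Antimycin A blocks the cytochrome bc1 complex, also called complex III, and so stops electron flow through the respiratory chain. Mitochondrial trouble of this kind is relayed by the protease OMA1 and the protein DELE1 to the kinase HRI, encoded by EIF2AK1, which phosphorylates the translation factor eIF2. General translation then slows while the mRNA of the transcription factor ATF4 is translated more, and ATF4 with its partners switches on genes for amino acid supply, tRNA charging and redox control. This program is the integrated stress response, and ATF4 pairs with C/EBP proteins on a DNA element called CARE, written TGATGNAA.

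A gene is said to have risen or fallen where the p of edgeR's quasi-likelihood test, adjusted by Benjamini-Hochberg over all tested genes, was under 0.05. Log2 fold changes run antimycin over vehicle, with ± giving the standard error, and n = 4 libraries per group throughout. By this test 8680 genes changed, 51.9% of those tested, with 4265 higher (25.5%) and 4415 lower (26.4%) under antimycin. Most of the changes were small. Of the called genes 1553 moved by less than 1.1-fold, 5489 by 1.1 to 1.5-fold, 1043 by 1.5 to 2-fold and 595 by 2-fold or more. The 595 genes at 2-fold or more are 3.55% of those tested, and of them 305 were higher (1.82% of those tested) and 290 lower (1.73%). The antimycin and vehicle libraries did not overlap in 7761 genes (46.4%). Any count of changed genes in a group below is to be read against these shares.

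Promoter sequences of strongly rising integrated stress response genes are shown first, chosen because they hold the letters that ATF4 is known to bind. RefSeq promoter windows (build GRCh38.p14, from 250 bases before to 50 bases after the annotated start) could be matched for 12411 of the 16739 tested genes. The search for TGATGNAA covered both strands, and a match on the opposite strand reads TTNCATCA. CHAC1, ATF3 and ASNS rose at least 2-fold with a mean log2 CPM of at least 1 and held a match, and the 250 bases before their start are printed 5′ to 3′ along the gene, with the match in capitals. CHAC1 lies at chr15:40953221-40953470 on the plus strand, ATF3 at chr1:212565157-212565406 on the plus strand and ASNS at chr7:97872409-97872658 on the minus strand.
CHAC1: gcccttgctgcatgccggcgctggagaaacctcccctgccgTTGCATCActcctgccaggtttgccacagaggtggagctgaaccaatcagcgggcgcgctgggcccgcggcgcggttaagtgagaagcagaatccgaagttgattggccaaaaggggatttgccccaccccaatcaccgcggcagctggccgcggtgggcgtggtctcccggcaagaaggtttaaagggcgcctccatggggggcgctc
ATF3: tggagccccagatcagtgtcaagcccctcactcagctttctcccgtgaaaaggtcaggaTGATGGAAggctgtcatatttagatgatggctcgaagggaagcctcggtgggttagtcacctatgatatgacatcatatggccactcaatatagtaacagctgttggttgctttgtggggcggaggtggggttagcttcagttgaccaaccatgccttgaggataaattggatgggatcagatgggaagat
ASNS: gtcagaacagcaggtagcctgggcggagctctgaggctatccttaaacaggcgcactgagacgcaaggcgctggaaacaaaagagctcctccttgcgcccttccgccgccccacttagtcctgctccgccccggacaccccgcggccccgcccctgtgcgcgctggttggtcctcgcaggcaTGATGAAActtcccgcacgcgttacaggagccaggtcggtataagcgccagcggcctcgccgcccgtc
Counted with the first transcribed base as 0, the match begins at -209 in CHAC1, -191 in ATF3 and -68 in ASNS. These windows follow the annotated start, and which start these cells use was not examined.

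Over all promoters the element occurred in 220 of 12411 (1.77%). It occurred in 11 of 216 genes that rose at least 2-fold (5.09%), in 7 of 147 that fell at least 2-fold (4.76%) and in 103 of 5681 that did not pass (1.81%). Cytosolic tRNA synthetases, the enzymes that load amino acids onto tRNA, held it in 6 of 16 promoters (37.5%) and amino acid transporters in 4 of 17 (23.5%). Other groups held it in smaller shares. Stress response transcription factors held it in 1 of 11 promoters, and serine, glycine and folate enzymes in 1 of 15. Cysteine and glutathione enzymes held it in 2 of 13, and asparagine, proline and glutamate enzymes with PCK2 in 2 of 10. The synthetase windows below are aligned on the element, with 10 bases on either side, and are shown because all hold TTGCATCA on either strand while their transcripts changed by very different amounts.
AARS1: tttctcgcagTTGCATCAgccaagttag
MARS1: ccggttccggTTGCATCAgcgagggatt
IARS1: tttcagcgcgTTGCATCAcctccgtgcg
TARS1: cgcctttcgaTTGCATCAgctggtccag
CARS1: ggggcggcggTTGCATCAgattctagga
NARS1: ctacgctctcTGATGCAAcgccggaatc
NARS1 reads the element on the gene's own strand and the other 5 on the opposite strand. AARS1, for alanine, rose by 0.45 ± 0.02, MARS1, for methionine, by 0.12 ± 0.02 (adjusted p = 5.7e-06), and IARS1, TARS1 and NARS1, for isoleucine, threonine and asparagine, by 0.05 to 0.07. CARS1, for cysteine, stood at 0.46 ± 0.27 and did not pass (adjusted p = 0.17). A match in a window is a description of its letters and says nothing on binding in these cells.

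The messages of the relay itself changed little. Among 17 genes from mitochondria to eIF2, 5 were higher, 4 lower and 8 not called, with a median log2 fold change of 0.02 against 0.01 over all tested genes. DELE1 stood at 56.4, 57.5, 56.7 and 54.4 CPM under antimycin, against 49.6, 49.1, 48.0 and 51.6 CPM under vehicle (0.18 ± 0.04, adjusted p = 7.5e-05). EIF2AK1 rose by 0.15 ± 0.02, while OMA1, the protease upstream of it, stood at -0.06 ± 0.04 (adjusted p = 0.28) and EIF2AK3, the kinase that answers endoplasmic reticulum stress, at -0.11 ± 0.05 (adjusted p = 0.073). EIF2S1, the eIF2 subunit that carries the phosphorylation site, fell by 0.20 on the log2 scale. PPP1R15A, a stress-induced phosphatase subunit that removes the phosphate, showed the largest change of the relay genes. It lay at 36.8, 39.3, 41.0 and 35.6 CPM under antimycin and at 22.6, 24.5, 22.6 and 25.1 CPM under vehicle (0.69 ± 0.05, adjusted p = 9.1e-22). Its constitutive counterpart PPP1R15B rose by 0.31 ± 0.02.

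**Figure D1:**
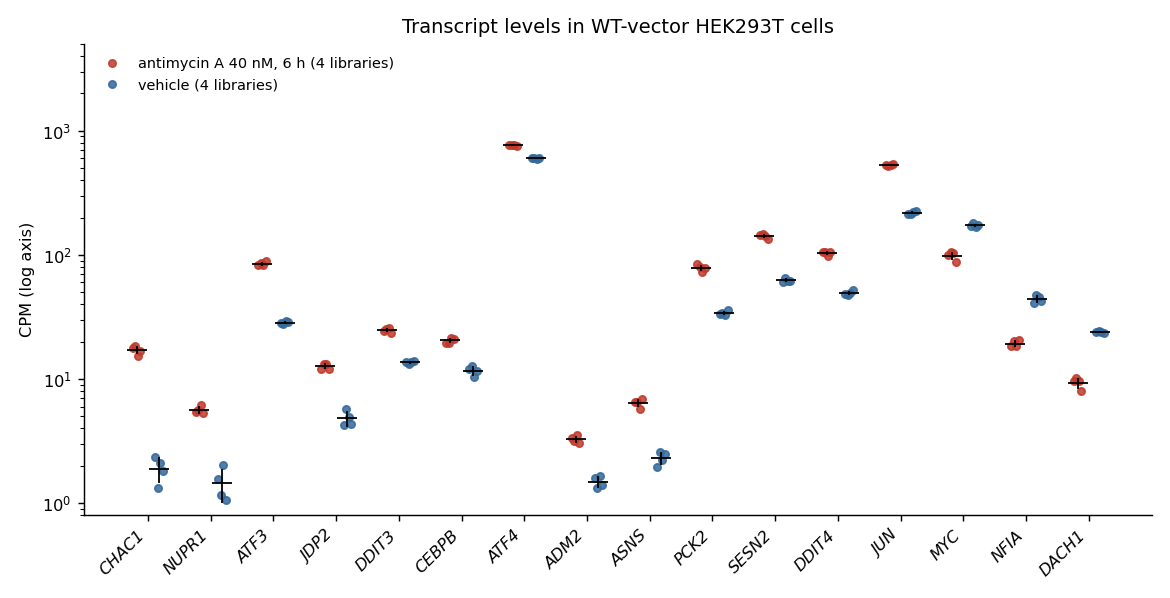
Level of 16 named genes in each of the 8 libraries of WT-vector cells, in CPM on a log axis, with antimycin A (red) left of vehicle (blue) for each gene. Points are libraries, and black bars give the mean and SD of 4. The groups do not overlap for any gene drawn, from CHAC1 (17.1 CPM under antimycin, 1.90 under vehicle) to DACH1 (9.32 under antimycin, 23.8 under vehicle).

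Transcription factors of the integrated stress response and their partners rose as a group, in 12 of 14 tested members, with a median of 0.68. ATF4 itself lay at 768, 764, 772 and 751 CPM under antimycin, against 600, 607, 594 and 601 CPM under vehicle. These groups lie apart by many times their spread, yet the change is 0.35 ± 0.02. ATF3, an ATF4 target that feeds back on the program, lay at 82.5, 85.5, 83.0 and 89.5 CPM under antimycin and at 28.3, 27.6, 29.4 and 28.8 CPM under vehicle (1.58 ± 0.04, adjusted p = 1.4e-47). Among the C/EBP partners, CEBPG stood at 161 ± 4.06 CPM under antimycin and 99.0 ± 2.49 under vehicle (mean ± SD), and CEBPB at 20.5 ± 0.982 under antimycin and 11.7 ± 1.01 under vehicle. CEBPD, of the same family, did not pass (-0.09 ± 0.12, adjusted p = 0.53). NUPR1, a small chromatin protein induced by stress, averaged 5.65 CPM under antimycin and 1.45 under vehicle (1.96 ± 0.16). The dimerization partner JDP2 stood at 12.7 ± 0.642 CPM under antimycin and 4.82 ± 0.708 under vehicle. ATF5 was the exception. This ATF4 relative, known for inducing mitochondrial chaperones in stressed mammalian mitochondria, lay at 18.4 to 20.2 CPM under antimycin and 23.9 to 26.5 CPM under vehicle and fell (-0.37 ± 0.06, adjusted p = 2.1e-08).

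Secreted stress hormones rose in 5 of 6 tested genes, with a median of 0.93. ADM2, a peptide of the calcitonin family, lay at 3.05 to 3.51 CPM under antimycin and 1.33 to 1.66 under vehicle (1.12 ± 0.16). INHBE, an activin subunit, rose by 1.21 ± 0.17, and VEGFA, the blood vessel growth factor, stood at 76.1 ± 1.27 CPM under antimycin and 45.7 ± 1.26 under vehicle. STC2, a glycoprotein hormone, rose by 0.35 ± 0.03. GDF15, which acts on the hindbrain to lower appetite, was scarce, at 0.451 to 0.616 CPM under antimycin and 0.0332 to 0.433 CPM under vehicle. The remaining gene, FGF21, had no count under antimycin and 6 counts in all under vehicle, and was called lower by DESeq2 and without the low-count filter but not by the test used here.

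Cysteine and glutathione enzymes split between a few large rises and many small changes. Among 17 genes 9 were higher, 3 lower and 5 not called, with a median of 0.11. CHAC1, which cleaves glutathione, was at 17.9, 18.5, 15.4 and 16.8 CPM under antimycin and at 2.35, 1.33, 2.1 and 1.82 CPM under vehicle (3.17 ± 0.12, adjusted p = 4.1e-30), the largest rise among the genes that met the naming rule. CTH, which makes cysteine from cystathionine, stood at 71.5 ± 1.89 CPM under antimycin and 34.7 ± 0.792 under vehicle. GSS, the second enzyme of glutathione synthesis, rose by 0.37 ± 0.03. MAT2A, which makes S-adenosylmethionine, fell by 0.40 on the log2 scale. SLC7A11, the cystine importer and a known ATF4 target, lay at 54.5 to 58.7 CPM under antimycin and 59.2 to 61.6 CPM under vehicle (-0.08 ± 0.04, adjusted p = 0.043). That call was lost under DESeq2 and under each of several other settings.

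Amino acid transporters rose in 13 of 21 genes and fell in 5, with a median of 0.16. SLC6A9, a glycine transporter, lay at 34.5, 35.1, 36.0 and 33.9 CPM under antimycin and at 12.3, 13.2, 12.3 and 14.1 CPM under vehicle. Both chains of the large neutral amino acid exchanger rose together, SLC7A5 by 0.50 ± 0.03 and its partner chain SLC3A2 by 0.54 ± 0.02. SLC38A2, a glutamine and alanine carrier, rose by 0.45 ± 0.02. The glutamate transporter SLC1A3 fell (-0.24 ± 0.04), although its promoter holds TGATGCAA. Asparagine, proline and glutamate enzymes with PCK2 rose in 9 of 15 tested genes and fell in 2. PCK2, the mitochondrial enzyme that makes phosphoenolpyruvate, stood at 78.7 ± 4.72 CPM under antimycin and 34.0 ± 1.49 under vehicle. GPT2, the mitochondrial alanine transaminase, rose by 0.46 ± 0.03. ASNS, asparagine synthetase, was at 6.42 ± 0.472 CPM under antimycin and 2.32 ± 0.286 under vehicle. Its processed copy ASNSP1 was at 4.38 ± 0.419 CPM under antimycin and 1.02 ± 0.170 under vehicle, and reads shared between gene and copy could have been assigned to either, so both values are uncertain. In serine, glycine and folate metabolism 9 of 22 genes rose and 6 fell. PHGDH, the first enzyme of serine synthesis, lay at 495 to 522 CPM under antimycin and 379 to 397 CPM under vehicle (0.38 ± 0.02), and SHMT2, the mitochondrial serine hydroxymethyltransferase, averaged 314 ± 7.17 under antimycin and 247 ± 4.82 under vehicle.

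Cytosolic and mitochondrial tRNA synthetases differed in their counts. Of 20 cytosolic synthetase genes 12 rose and 5 fell, with a median of 0.06, and of 17 mitochondrial ones 3 rose and 9 fell, with a median of -0.06. RARS1, the cytosolic enzyme for arginine, lay at 181 to 183 CPM under antimycin and 212 to 220 CPM under vehicle and fell by 0.24 on the log2 scale. FARS2, the mitochondrial enzyme for phenylalanine, fell by 0.49. VARS1, for valine, varied from 2.07 to 9.27 CPM among the antimycin libraries and from 3.10 to 9.53 CPM among the vehicle libraries, so no change could be told (-0.33 ± 0.57, adjusted p = 0.66). The cytosolic count of 5 falls to 3 with DESeq2 size factors. The difference between both groups of enzymes was not tested.

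Genes listed as brakes on the growth kinases mTORC1 and AKT moved both ways, with 8 of 17 higher and 4 lower. SESN2, a leucine sensor that restrains mTORC1, lay at 145, 147, 143 and 135 CPM under antimycin and at 60.6, 65.7, 61.8 and 62.1 CPM under vehicle (1.19 ± 0.03). DDIT4, which acts through the TSC complex, was at 103 ± 3.36 CPM under antimycin and 49.2 ± 1.86 under vehicle. FLCN rose by 0.45 ± 0.04, whereas its partner FNIP1 fell by 0.45 on the log2 scale. Whether FLCN or FNIP1 acts as a brake in these cells was not tested.

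**Figure D2:**
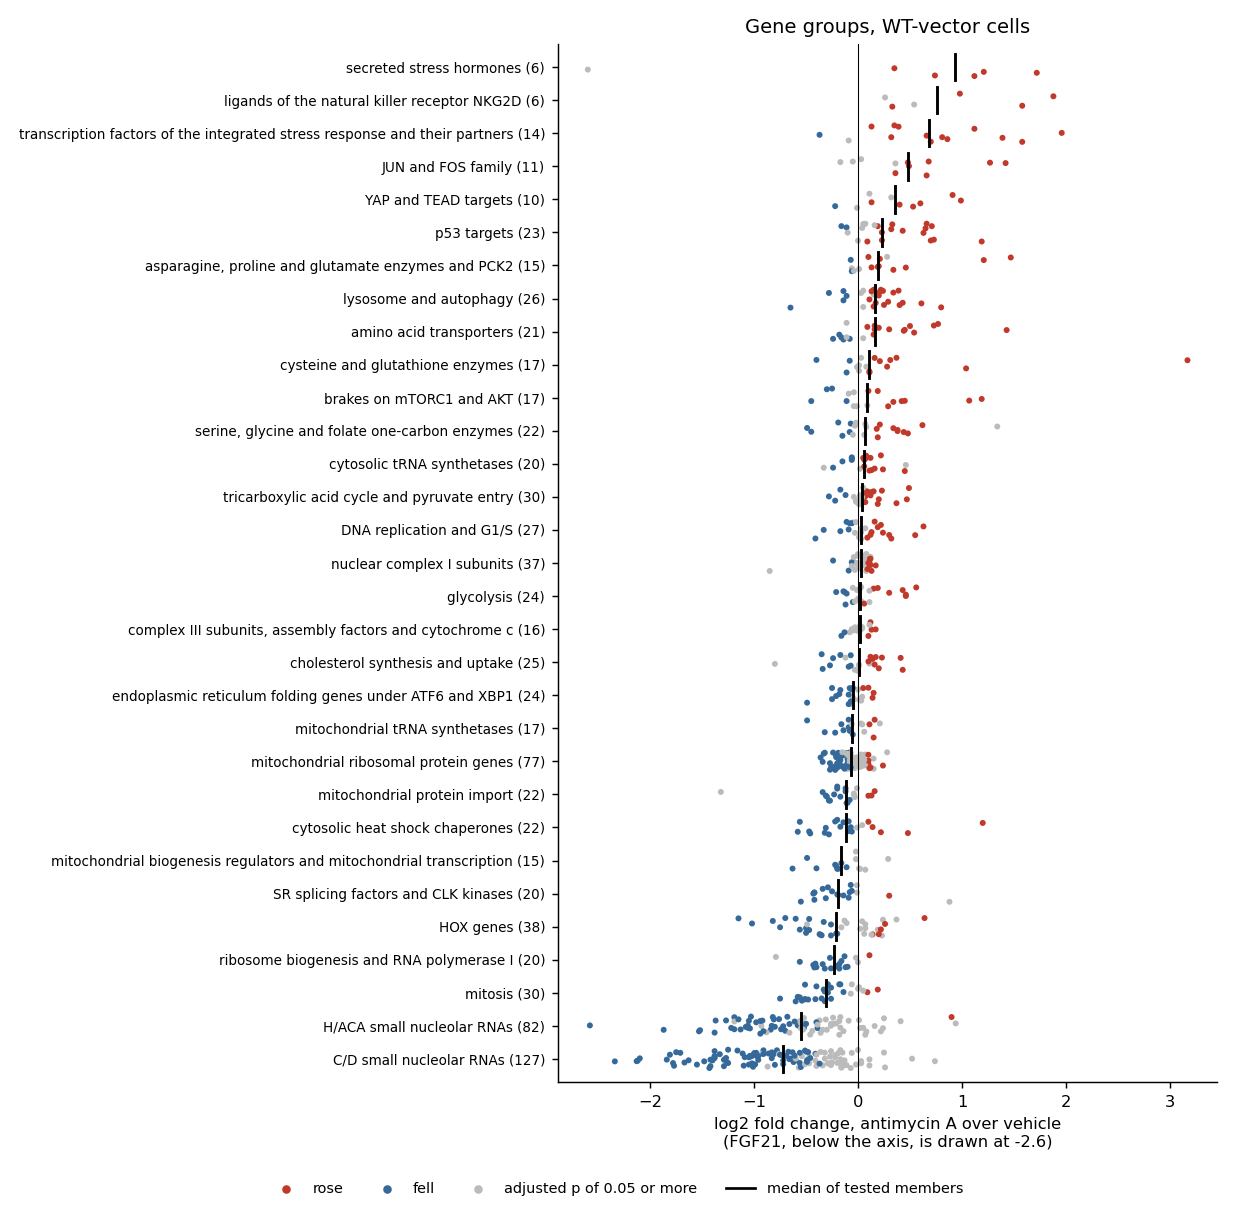
Log2 fold change (antimycin A over vehicle) of every tested member of 31 gene groups in WT-vector cells, ordered by the group's median, with the number of members tested in parentheses. Points are genes, red where they rose, blue where they fell and grey where the adjusted p was 0.05 or more, and black lines are medians. Hormones (0.93), ligands of the natural killer receptor NKG2D (0.76) and stress response transcription factors (0.68) stand at the top. C/D small nucleolar RNAs (-0.72) stand at the bottom.

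Among 16 genes of complex III, the target of the drug, 4 were higher, 2 lower and 10 not called, within -0.16 to 0.17. UQCRC1, a core subunit, rose by 0.17 ± 0.02, and UQCRFS1, the iron-sulphur subunit, fell by 0.16. CYCS, cytochrome c, fell by 0.13. Complex I had 8 of 37 genes higher and 3 lower, and complexes IV and V together 8 of 26 higher and 3 lower. The lowest values were -0.85 ± 1.16 for NDUFA3 of complex I, which did not pass (adjusted p = 0.57), and -0.63 ± 0.14 for ATP5F1E of complex V, which fell. Genes encoded in mitochondrial DNA are not analysed here. Tricarboxylic acid cycle and pyruvate entry genes rose more often, in 14 of 30, with 4 lower. IDH2, the mitochondrial NADP-dependent isocitrate dehydrogenase, was at 107 ± 1.83 CPM under antimycin and 83.0 ± 2.22 under vehicle. PDP1, the phosphatase that activates pyruvate dehydrogenase, rose by 0.47 ± 0.04.

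Genes that build mitochondria fell more often than they rose. Regulators of biogenesis and mitochondrial transcription had 0 of 15 members higher and 9 lower, with a median of -0.16. PPARGC1B, a coactivator of mitochondrial genes, lay at 60.5, 63.4, 62.9 and 59.1 CPM under antimycin and at 91.7, 97.8, 96.3 and 96.1 CPM under vehicle (-0.63 ± 0.03, adjusted p = 2.2e-27). TFB2M, which helps the mitochondrial RNA polymerase start, was at 34.5 ± 1.90 CPM under antimycin and 48.5 ± 1.15 under vehicle, and TFAM, which packages mitochondrial DNA, fell by 0.16. Protein import had 14 of 22 tested genes lower and 3 higher, TOMM70, an outer membrane receptor, among the lower ones (-0.34 ± 0.02). Mitochondrial ribosomal proteins were lower in 32 of 77 genes and higher in 7. Mitochondrial chaperones and proteases were mixed, with 5 of 18 higher and 7 lower. LONP1, the matrix protease, rose by 0.22 ± 0.03, and GRPEL1, a cochaperone of matrix HSP70, stood at 109 ± 2.67 CPM under antimycin and 143 ± 1.01 under vehicle. In 2 of these groups a member varied too widely to judge. TIMM22 lay at 1.61 to 2.81 CPM under antimycin and at 1.99 to 13.4 CPM under vehicle (-1.32 ± 0.80, adjusted p = 0.17), and DNAJA3 ran from 16.2 to 62.9 CPM under antimycin and from 17.3 to 93.7 CPM under vehicle (-0.74 ± 0.48, adjusted p = 0.21).

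Glycolysis genes had 8 of 24 higher and 6 lower, and hypoxia targets 5 of 16 tested higher and 3 lower, both near the background. The carriers of the aspartate and malate shuttles, with their enzymes, had 4 of 11 higher and 2 lower. SLC25A12 was lower under antimycin (-0.34 ± 0.03). Mitophagy and mitochondrial dynamics genes had 3 of 15 higher and 4 lower. PDK4, a kinase that shuts off pyruvate dehydrogenase, was called higher (0.49 ± 0.16, adjusted p = 0.0083), but its libraries overlap, at 2.46 to 3.03 CPM under antimycin and 1.36 to 2.55 under vehicle. That call is lost without vehicle replicate 4 (0.35). Among arrestins driven by the glucose sensor MondoA, ARRDC4 lay at 38.0 to 41.4 CPM under antimycin and 76.6 to 83.3 CPM under vehicle (-1.01 ± 0.04). TXNIP, the inhibitor of glucose uptake, was at 24.3 ± 1.56 CPM under antimycin and 37.4 ± 0.725 under vehicle. Their relative ARRDC3 rose (0.86 ± 0.05).

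The machinery that makes ribosomes was lower under antimycin. Of 20 genes of ribosome biogenesis and RNA polymerase I, 16 fell and 1 rose, with a median of -0.23. POLR1A, the largest subunit of the polymerase, lay at 186, 179, 181 and 182 CPM under antimycin and at 247, 241, 240 and 244 CPM under vehicle. POLR1B, the next largest subunit, was at 156 ± 2.58 CPM under antimycin and 206 ± 4.58 under vehicle. NOP16, a nucleolar assembly protein, fell by 0.56, and NCL, nucleolin, by 0.18. UBTF, which opens ribosomal DNA for transcription, was the member that rose (0.11 ± 0.02). The ribosomal proteins themselves showed no such fall, with 16 of 83 higher and 8 lower. That count of 16 becomes 26 when the 8 libraries are fitted alone.

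Small nucleolar RNAs, which guide chemical modification of ribosomal RNA and are cut from introns of host genes, fell more often than the other RNA classes compared (protein-coding, long noncoding, micro RNA and transcribed pseudogene). Of 356 C/D and 178 H/ACA symbols in the table, 127 and 82 had enough counts to test. Of these 209, 120 fell (57.4%) and 1 rose, with a median of -0.66, against 27.7% lower and 27.6% higher among 14011 protein-coding genes. The C/D class had 79 of 127 lower and 0 higher, and the H/ACA class 41 of 82 lower and 1 higher. SNORA73B lay at 1.16, 1.58, 1.09 and 1.00 CPM under antimycin and at 4.76, 4.39, 4.36 and 4.21 CPM under vehicle (-1.87 ± 0.15, adjusted p = 1.3e-18). SNORD44, carried by the host gene GAS5, lay at 1.78 to 2.67 CPM under antimycin and 5.54 to 5.96 CPM under vehicle. The libraries were enriched for poly(A) RNA, which these RNAs lack, so the counts do not give their level in the cell. A read from an unspliced host intron and a read from the RNA inside it cannot be told apart in these counts.

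Host genes did not fall to the same degree. Exactly 1 tested host gene on the same strand contained the small nucleolar RNA in 156 cases, with 90 hosts in all. The median was -0.68 over the 156 small nucleolar RNAs and -0.06 over the hosts, and 128 of the 156 stood below their host. Of 92 that fell, the host fell in 44 cases, rose in 25 and did not pass in 23. RPS12, a ribosomal protein gene, was at 467 ± 10.8 CPM under antimycin and 451 ± 7.17 under vehicle (0.05 ± 0.03, adjusted p = 0.16), while SNORD101 in its introns was at 1.37 ± 0.304 under antimycin and 3.63 ± 0.236 under vehicle (-1.40 ± 0.17). HSPA8, the constitutive HSP70, fell by 0.47 and SNORD14C within it by 1.09. RABGGTB, which attaches lipid anchors to Rab proteins, was at 146 ± 3.07 CPM under antimycin and 199 ± 1.66 under vehicle, and SNORD45B was at 1.82 ± 0.108 under antimycin and 4.38 ± 0.377 under vehicle. Noncoding host genes fell themselves, GAS5 by 0.41 and SNHG3 by 0.79, within a set of 24 of which 14 fell and 1 rose. Small nucleolar RNAs in 1 host share its transcript and are not independent of each other.

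**Figure D3:**
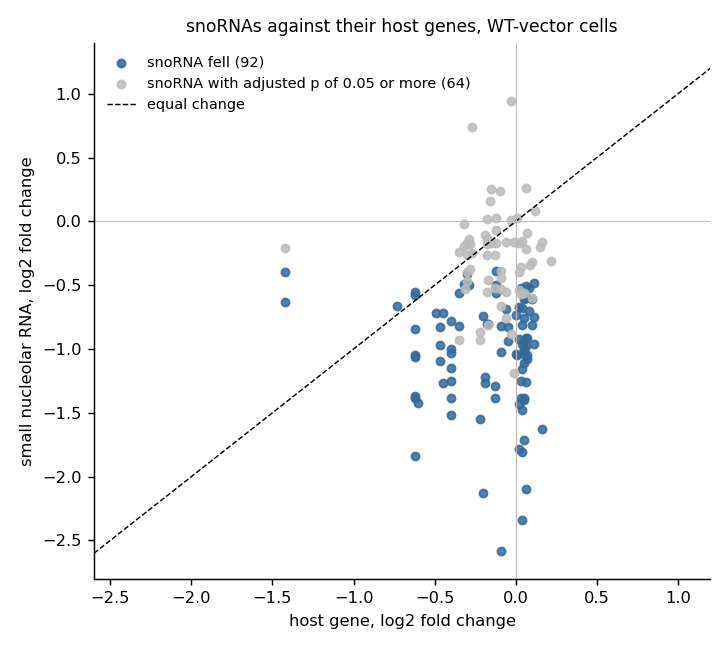
Log2 fold change (antimycin A over vehicle, WT-vector cells) of 156 small nucleolar RNAs on the vertical axis against that of the host gene on the horizontal axis. Blue points fell (92), grey points had an adjusted p of 0.05 or more, and the dashed line marks equal change. Most points, 128 of 156, lie below the line.

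SR splicing factors and the CLK kinases that phosphorylate them fell in 16 of 20 genes and rose in 1, with a median of -0.19. SRSF2 was at 376 ± 9.79 CPM under antimycin and 551 ± 10.5 under vehicle. SRSF3 lay at 465, 480, 467 and 477 CPM under antimycin and at 630, 632, 642 and 623 CPM under vehicle. SRSF1 fell by 0.34 and CLK1 by 0.29, while CLK3 rose (0.30 ± 0.04). Nucleotide synthesis genes fell in 12 of 18 cases and rose in 3.

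Long genes were lower and short genes slightly higher. Gene span, from RefSeq start to end with introns included, was split into 10 equal bins over 11688 protein-coding genes with a mean log2 CPM of at least 1, a relation examined after the values were seen. In the bin of the longest genes (170 to 2300 kb, n = 1169) 768 fell (65.7%) and 52 rose (4.45%), with a median of -0.25. In the bin of the shortest genes (0.276 to 5.88 kb, n = 1169) 214 fell (18.3%) and 447 rose (38.2%), with a median of 0.07. NFIA, a developmental transcription factor, lay at 18.3 to 20.6 CPM under antimycin and 41.2 to 47.6 CPM under vehicle (-1.20 ± 0.05), and DACH1, a nuclear cofactor of eye and limb development, at 7.94 to 10.1 CPM under antimycin and 23.3 to 24.3 CPM under vehicle. Both fell by far more than the median of the longest bin. Of the 12 longest genes with a mean log2 CPM of at least 3, 10 fell. They include NRXN3, a synaptic adhesion protein (1700 kb, -0.76 ± 0.10), GPHN, the receptor anchor gephyrin (1230 kb, -0.48 ± 0.05) and TENM3, a teneurin (1360 kb, -0.49 ± 0.05). FHIT, the diadenosine triphosphatase gene at a common fragile site (1500 kb), stood at 0.02 ± 0.09 (adjusted p = 0.88), and its sign changed when single libraries were left out.

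The relation with span was seen at both levels of expression. Within the longest bin 59.5% of the less expressed genes and 80.1% of the more expressed ones fell, and 41.1%, 56.7% and 71.0% fell in genes of short, middle and long spliced length, split into 3 equal sets. Across the 11688 genes the Spearman correlation of span with log2 fold change was -0.335, and that of spliced length was -0.231 over 11545 genes. Genes are not independent replicates, and all of these points come from the same 8 libraries. Elsewhere in the study the longest bin fell in 64.6% of genes for KO-vector cells and 64.4% for the libraries with the SLC25A12-WT label. The share was 63.6% for F137S cells and 44.1% for the line with dMTS-DELE1 as well. These differences between lines were not tested.

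**Figure D4:**
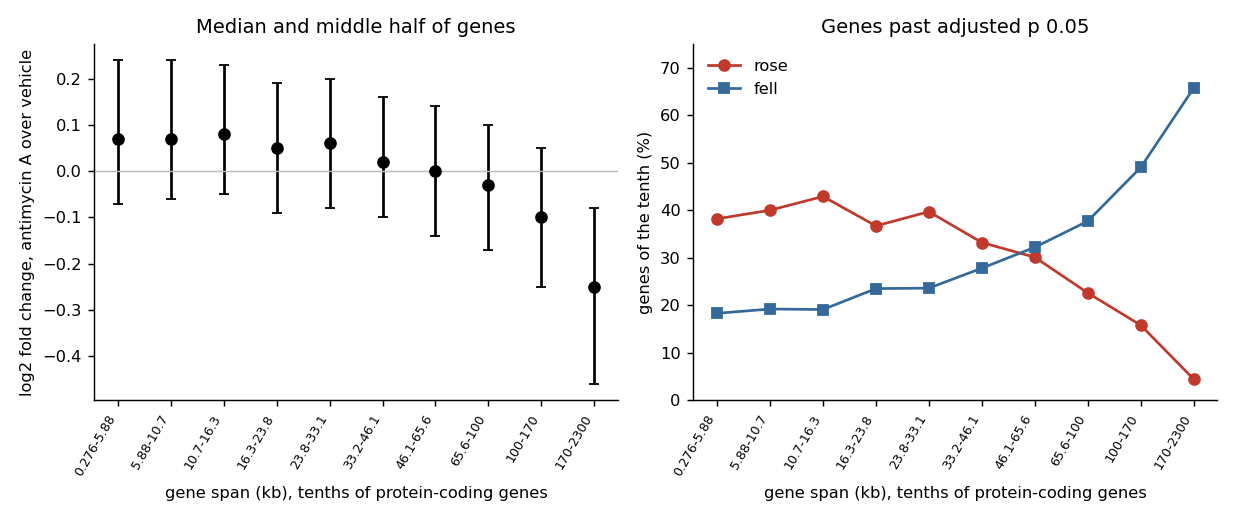
Response by gene span in WT-vector cells, for 10 equal bins of protein-coding genes from short to long. Left, median log2 fold change (antimycin A over vehicle) with bars from the lower to the upper quartile. Right, percent of genes that rose (red circles) or fell (blue squares), which reach 4.45% and 65.7% in the bin of the longest genes.

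Genes of the JUN and FOS family rose in 7 of 11 cases and fell in none. JUN lay at 533, 520, 529 and 538 CPM under antimycin and at 215, 215, 222 and 224 CPM under vehicle (1.27 ± 0.03, adjusted p = 4.8e-30). JUND was at 81.4, 82.6, 83.0 and 92.3 CPM under antimycin and at 33.9, 29.8, 30.3 and 32.9 CPM under vehicle. Other early genes rose in 10 of 21 tested cases, among them the phosphatases of stress kinases DUSP10 (1.06 ± 0.14) and DUSP8 (1.70 ± 0.35). Only 1 fell, by at least 2-fold, and that call is lost without the low-count filter. The YAP and TEAD targets, which answer to cell shape and density, rose in 6 of 10 cases and fell in 1. CCN1, a matrix protein, was at 22.1 ± 2.16 CPM under antimycin and 11.1 ± 0.638 under vehicle, and AMOTL2, which restrains YAP, at 21.6 ± 1.09 under antimycin and 11.5 ± 0.495 under vehicle. Feedback targets of TGF-beta, Notch, Wnt, Hedgehog and NF-kB signalling rose in 10 of 19 and fell in 6.

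MYC fell, and so did most mitotic genes. MYC, the growth-promoting transcription factor, lay at 99.1, 105, 103 and 88.3 CPM under antimycin and at 170, 179, 169 and 174 CPM under vehicle (-0.81 ± 0.04), and its antagonist MXD1 rose (0.48 ± 0.06). Over the MYC network 4 of 12 genes were higher and 5 lower. Of 30 mitotic genes 23 fell and 2 rose, with a median of -0.31. The kinase AURKA was at 69.5 ± 1.47 CPM under antimycin and 117 ± 3.94 under vehicle, PLK1 at 129 ± 7.43 under antimycin and 195 ± 5.73 under vehicle, and CCNB1, cyclin B1, at 196 ± 6.08 under antimycin and 285 ± 6.52 under vehicle. The letters CCAAT, on either strand, occurred in 19 of 25 matched mitotic promoters (76.0%), against 36.3% of all 12411. They also occurred in 15 of 18 cholesterol promoters (83.3%), a group with 10 of 25 higher and 8 lower, and in 36.7% of genes that fell at least 2-fold. In bulk RNA fewer cells in mitosis and less of these messages per cell cannot be told apart. Genes of DNA replication and the start of S phase did not share the fall, with 11 of 27 higher and 7 lower. E2F1, which drives that phase, was at 136 ± 4.20 CPM under antimycin and 88.2 ± 1.56 under vehicle. Replication-dependent histone genes had 1 of 30 higher and 1 lower. The libraries were enriched for poly(A) RNA and these messages mostly lack a poly(A) tail, so the counts do not give their level in the cell.

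Targets of p53 rose in 14 of 23 cases and fell in 2, with a median of 0.23. HEK293T cells carry the SV40 large T antigen, which binds p53. CDKN1A, the cell cycle inhibitor p21, lay at 15.8, 15.2, 14.2 and 15.3 CPM under antimycin and at 9.79, 9.60, 9.59 and 9.65 CPM under vehicle. BBC3, the cell death protein PUMA, was at 12.1 ± 0.662 CPM under antimycin and 7.30 ± 0.289 under vehicle. MDM2, the p53 ubiquitin ligase and a classical target, fell (-0.11 ± 0.02). CDKN2B, the inhibitor p15 of CDK4 and CDK6, is not among these 23 genes and rose by 1.23 ± 0.08. Apoptosis genes had 7 of 22 tested higher and 2 lower.

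Lysosome and autophagy genes rose in 17 of 26 cases and fell in 5, with a median of 0.16. SQSTM1, the autophagy receptor p62, was at 181 ± 3.74 CPM under antimycin and 134 ± 3.60 under vehicle, and WIPI1, which binds the growing autophagosome, rose by 0.61 ± 0.13. UVRAG, which helps autophagosomes mature, lay at 19.7 to 22.7 CPM under antimycin and 32.7 to 35.9 CPM under vehicle. NRF2 targets, the antioxidant genes, had 9 of 20 higher and 5 lower.

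Ligands of NKG2D, the receptor by which natural killer cells see stressed cells, rose in 4 of 6 tested genes. ULBP1 lay at 11.5, 8.79, 10.3 and 9.37 CPM under antimycin and at 2.15, 3.59, 2.50 and 2.62 CPM under vehicle (1.88 ± 0.11), and ULBP2 was at 15.5 ± 1.37 under antimycin and 7.86 ± 0.436 under vehicle. RAET1G was scarce and rose (1.58 ± 0.38). Interferon-stimulated genes had 4 of 14 tested higher and 1 lower.

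Cytosolic heat shock chaperones were lower in 15 of 22 genes and higher in 5. HSPA1A, the inducible HSP70, lay at 17.0, 19.3, 22.7 and 17.2 CPM under antimycin and at 27.4, 28.3, 28.5 and 27.8 CPM under vehicle, and reads from its near-identical copy HSPA1B could have been assigned to it. HSPA8 was at 1490 ± 33.9 CPM under antimycin and 2060 ± 24.8 under vehicle. HSPA6 went the other way at a low level, 0.836 to 0.940 CPM under antimycin and 0.266 to 0.466 CPM under vehicle. Folding genes under ATF6 and XBP1 were lower in 12 of 24 cases and higher in 4, DNAJB9, an XBP1 target, falling by 0.49. DDIT3, which encodes CHOP and is shared by all branches of the stress response, was at 24.7 ± 0.954 CPM under antimycin and 13.6 ± 0.279 under vehicle.

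Cholesterol genes had 10 of 25 higher and 8 lower and fatty acid genes 7 of 17 higher and 5 lower. STARD4, which carries cholesterol between membranes, rose (0.41 ± 0.04). Clock genes split evenly, with 7 of 15 higher and 6 lower. CRY2, a repressor of the clock, was at 49.3 ± 1.98 CPM under antimycin and 27.5 ± 1.78 under vehicle, and NR1D1, the nuclear receptor REV-ERB alpha, at 2.40 ± 0.433 under antimycin and 4.40 ± 0.310 under vehicle.

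HOX genes, which mark position along the body axis, fell in 19 of 38 tested cases and rose in 5, unevenly between clusters. All 11 tested HOXA genes fell (median -0.50), against 5 of 9 in HOXB, 2 of 9 in HOXC and 1 of 9 in HOXD. HOXA11 lay at 18.4 to 20.5 CPM under antimycin and 40.9 to 44.8 CPM under vehicle (-1.15 ± 0.05). HOXB4 rose (0.64 ± 0.12). Neighbouring HOX genes overlap antisense transcripts, and the strand setting of the counting is not known here. Zinc finger genes with ZNF symbols sat at the background, with 123 of 456 higher and 121 lower.

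Outside these groups, genes that met the naming rule for the largest rises include GUCA1B, a guanylate cyclase activator of the retina, at 4.47 ± 0.357 CPM under antimycin and 1.31 ± 0.0955 under vehicle. BAIAP3, a regulator of vesicle traffic, was at 15.1 ± 1.14 CPM under antimycin and 5.10 ± 0.617 under vehicle, and RND1, a small GTPase that loosens the actin skeleton, rose by 1.44 ± 0.14. Among the largest falls, GNG13, a G protein gamma subunit of taste and retina, lay at 2.67 to 3.41 CPM under antimycin and 7.48 to 9.69 CPM under vehicle. CYP27B1, which activates vitamin D, was at 7.07 ± 0.652 CPM under antimycin and 17.5 ± 1.57 under vehicle. A few large changes came with uneven libraries. NTAN1, an amidase of protein degradation, ran from 1.91 to 12.5 CPM among the antimycin libraries, against 1.13 to 1.66 under vehicle (2.39 ± 0.75, adjusted p = 0.0078). RPS9, a ribosomal protein gene, lay at 11.3 to 23.3 CPM under antimycin and 4.43 to 7.88 under vehicle (1.75 ± 0.67, adjusted p = 0.028). SNHG32 lay at 0.998 to 2.01 CPM under antimycin and 3.28 to 8.21 CPM under vehicle (-2.02 ± 0.69, adjusted p = 0.015). Leaving out single libraries moved RPS9 to an adjusted p of 0.052 to 0.064 in 4 of 8 cases, at log2 fold changes of 1.66 to 1.76, and SNHG32 to an adjusted p of 0.053 in 1 case, at -1.75. How the counting treated reads that match several places in the genome is not stated, so the values of NTAN1, RPS9, TIMM22, DNAJA3, VARS1 and CARS1, which vary widely among replicates, are uncertain.

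Between WT-vector cells and the libraries with the label KO plus SLC25A12-WT, whose SLC25A12 level is that of wild-type cells, the difference of response passed in 0 of 16739 genes (0.0%) by edgeR and by DESeq2, with 756 at an unadjusted p under 0.05 (4.52%). Of the genes called in both, 7279 moved the same way and 1 the opposite way, which is 83.9% of the WT-vector calls and 83.1% of the labelled libraries' calls. Log2 fold changes correlated at r = 0.94 over 10513 genes with a mean log2 CPM of at least 3, given as a description. CHAC1 stood at 3.17 ± 0.12 in WT-vector cells and 3.38 ± 0.12 in the labelled libraries, a difference of -0.20 ± 0.18. A p that misses the threshold does not show that the responses are equal.

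Against KO-vector cells the difference of response passed in 262 genes (1.57%), 122 more positive in WT-vector cells (0.729%) and 140 more negative (0.836%). Of a panel of 15 genes, chosen with earlier results known, 7 passed, all more positive in WT-vector cells. Outside the panel, the largest differences among genes with a mean log2 CPM of at least 1 ran both ways. DDR2 (1.26 ± 0.10), CRIP2 (1.09 ± 0.20) and ASNSP1 (1.02 ± 0.24) were more positive in WT-vector cells. SLC39A7 (-1.33 ± 0.32), RGS20 (-0.80 ± 0.21), SHISA4 (-0.78 ± 0.22) and TEKT4P2 (-0.67 ± 0.18) were more negative. ATF4 stood at 0.35 ± 0.02 in WT-vector and 0.07 ± 0.02 in KO-vector cells (adjusted p of the difference = 2.0e-14, edgeR). The differences were 1.26 ± 0.18 for CHAC1, 0.22 ± 0.06 for ATF3 (adjusted p = 0.036), 0.41 ± 0.07 for PCK2, and 0.29 ± 0.03 for PSAT1, of serine synthesis. For SLC7A11 the difference was 0.48 ± 0.05, with -0.08 ± 0.04 in WT-vector and -0.56 ± 0.03 in KO-vector cells. JUN stood at 1.27 ± 0.03 in WT-vector and 1.02 ± 0.03 in KO-vector cells, a difference of 0.25 ± 0.04 (edgeR adjusted p = 3.8e-04). MYC stood at -0.81 ± 0.04 in WT-vector and -0.98 ± 0.04 in KO-vector cells, which did not pass (adjusted p = 0.13), nor did CDKN1A (difference 0.12 ± 0.10, adjusted p = 0.73), TXNIP (0.19 ± 0.07, adjusted p = 0.23), DDIT3 (0.23 ± 0.09, adjusted p = 0.28), ASNS (0.52 ± 0.20, adjusted p = 0.23), TRIB3 (0.24 ± 0.07, adjusted p = 0.057) or HSPA1A (-0.07 ± 0.14, adjusted p = 0.91). Of the genes called in both lines 6873 moved the same way and 22 the opposite way, with r = 0.896 over 10513 genes. The direction of the 262 is not settled, since 46.6% were more positive in WT-vector cells here, 57.8% with DESeq2 size factors and 69.1% without the labelled libraries.

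**Figure D5:**
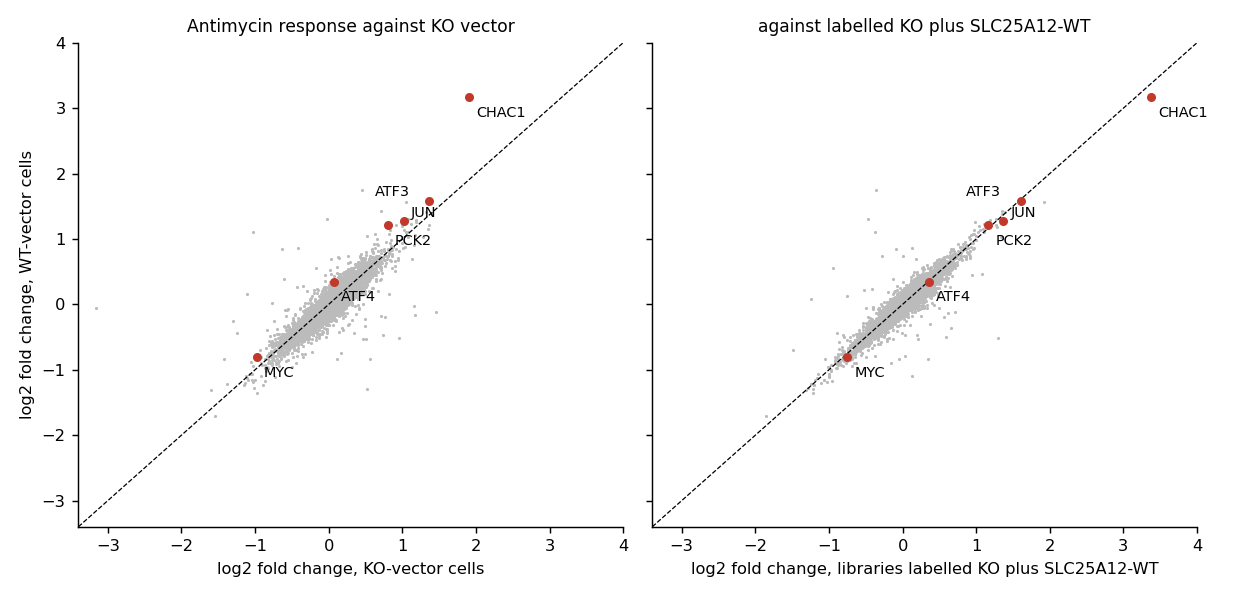
Antimycin response (log2 fold change, antimycin A over vehicle) of WT-vector cells on the vertical axis against that of KO-vector cells (left) and of libraries with the label KO plus SLC25A12-WT (right), for 10513 genes with a mean log2 CPM of at least 3. Each point is a gene, 6 genes are named in red (CHAC1, below that level, is added), and the dashed line marks equal response. CHAC1 lies above the line on the left (3.17 in WT-vector cells, 1.91 in KO-vector cells) and close to it on the right.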

How the data were processed

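HEK293T poly(A) RNA was read as paired ends, per the labels' protocols. The deposited table holds raw counts per gene symbol and library, made by the authors with HISAT2 2.1.0, featureCounts 2.0.6 and hg38, per the submitters' processing notes. Strandedness, annotation and settings were not given in the sources used. Library names in the labels gave the groups.

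Counts of all 40 libraries were filtered with filterByExpr, scaled by TMM and fitted by edgeR 4.0.16's robust quasi-likelihood model (R 4.3.3, limma 3.58.1, 10 groups). Benjamini-Hochberg adjustment ran over all 16739 genes tested. CPM use TMM-scaled totals over tested genes, and log2 CPM adds a prior count of 2. The summed levels of cell type markers and their limit of 0.1 CPM use plain totals over all genes instead. The common biological coefficient of variation was 0.0509. Standard errors are the fold change divided by the root of the F statistic.

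Genes outside lists were taken from the 15 largest changes each way with a named symbol, mean log2 CPM of at least 1, a call and no overlap between groups. Some genes, NFIA and CDKN2B among them, were named outside this rule with their values known. Members, lists and the relation with span were chosen with earlier results of these data known. Alternatives were DESeq2 1.42.0 size factors and Wald test, no filter, halved counts, a replicate block, glmTreat, fewer groups and each library left out. Gene spans, biotypes and promoters came from RefSeq (GRCh38.p14, 16065 symbols matched), and small nucleolar RNA hosts from GENCODE. Of pairs of replicates within a group, all differed beyond sampling noise (chi-square per degree of freedom 3.16 to 4.2).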

Additional observations from a re-analysis of the deposited data

Results flagged for a closer look

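Of 306 groups of 4 libraries examined for a library far from the other 3, 13 were marked (4.25%), and chance marks about 1 in 20. Values are in CPM.

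Under antimycin, CEBPG was highest in replicate 4 at 167, against 158 to 159 in the others, and JUND in replicate 4 at 92.3, against 81.4 to 83.0. POLR1B was lowest in replicate 4 at 152, against 157 to 158. VEGFA was highest in replicate 3 at 78.0, against 75.4 to 75.7, SHMT2 in replicate 3 at 325, against 309 to 312, and DDIT4 was lowest there at 98.5, against 105 to 106. CRIP2 was lowest in replicate 2 at 3.59, against 4.50 to 4.64.

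Under vehicle, TRIB3 was lowest in replicate 1 at 23.0, against 25.1 to 25.4, and SNORD78 in replicate 1 at 3.77, against 4.49 to 4.62. PHGDH was lowest in replicate 3 at 379, against 396 to 397, and GRPEL1 in replicate 3 at 142, against 143 to 144. BNC2 was lowest in replicate 4 at 3.75, against 5.19 to 5.38. TIMM22 was highest in replicate 2 at 13.4, against 1.99 to 3.24.

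Responses of 7 genes of the panel differed between WT-vector and KO-vector cells by edgeR's quasi-likelihood test of the difference. WT-vector minus KO-vector, the log2 differences were 1.26 for CHAC1 (adjusted p = 2.3e-06), 0.22 for ATF3 (0.036), 0.28 for ATF4 (2.0e-14), 0.29 for PSAT1 (7.6e-15), 0.41 for PCK2 (1.2e-05), 0.48 for SLC7A11 (1.3e-11) and 0.25 for JUN (3.8e-04).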

How the results depend on the processing

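The number of called genes in WT-vector cells ran from 8389 without a filter to 8733 by the DESeq2 Wald test, and was 8637 with the replicate block. Same-numbered libraries did not deviate together (r from -0.128 to 0.0119), so the numbers were not taken as pairs. With the block the difference from KO-vector cells called 243 genes and that from the labelled libraries 0. Asking for a log2 change beyond 0.32 (glmTreat) left 1830 genes, 823 higher and 1007 lower, and in the span bins 300 of the longest genes lower and 73 of the shortest higher. The count of genes at 2-fold or more, 595 in the main fit, was lower under some settings. It was 453 when the 8 libraries were fitted alone, 425 with counts halved and 439 by glmTreat. Leaving out single libraries gave 8195 to 8366 calls (4012 to 4428 higher, 3877 to 4219 lower, 566 to 596 at 2-fold or more), 717 to 753 longest genes lower and 424 to 475 shortest genes higher. For the difference from KO-vector cells it gave 193 to 234 calls (109 to 138 more positive, 77 to 121 more negative), and for the labelled libraries 0 to 0. More negative calls against KO-vector cells fell to 86 without a filter and 75 without the labelled libraries, and more positive ones reached 196 by the DESeq2 Wald test. The share more positive was 61.6% without a filter, 56.8% by the Wald test and 40.7% when fitted alone. These causes were not tested.

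Of 2290 values of named genes under alternatives 2264 kept direction and side of the threshold. FHIT ran from -0.03 to 0.08 when single libraries were left out, below 0 without vehicle replicate 4 (-0.03) or antimycin replicate 1 (-0.01). The calls of SLC7A11, RPS9, SNHG32, NEU1 and PDK4 were lost in places, and ALDH1L1 passed without vehicle replicate 1 (1.91) or antimycin replicate 1 (1.53). Genes at a few counts per library are limited by depth.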
